A study of Mus musculus with 17 samples.

Results

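The genes described here are Zfp36, Zfp36l1 and Zfp36l2, the members of the Zfp36 family of mRNA decay factors that gave a measurable signal in mouse cortex. They are 3 of the 23284 genes counted. They were chosen by their rank at 4 weeks of age, where Zfp36l2 had the smallest p-value of all genes in the comparison of Tsc1CKO with control cortex and Zfp36l1 had the seventh smallest. All 3 passed the filter on low counts in every comparison. The fourth mouse member, Zfp36l3, which is known from placenta and yolk sac, had between 0 and 5 reads in each library and was not tested.

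The mice had a mixed Bl6/129S background, and the RNA sequenced came from the upper part of their cortex, dissected over the somatosensory and parietal fields and enriched for poly(A) mRNA. The labels name 4 groups. The mutant groups carry the genotype mGfapCre+:Tsc1CKO, in which a mouse Gfap promoter drives Cre recombinase and Tsc1, a brake on the kinase complex mTORC1, is conditionally deleted. There were 5 such libraries at 4 weeks and 4 at 15 weeks. The control groups, with 5 libraries at 4 weeks and 3 at 15 weeks, are littermates labelled mGFAPCre+, so that Cre is present in all 4 groups and the deletion sets the groups apart. This Cre is used to reach astrocytes, while the tissue holds all cell types of the cortex. A bulk measurement cannot tell fewer cells of a type from less RNA per cell. No label ties the libraries to individual animals, and the p-values cover only the variation from library to library, which may be technical.

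Proteins of this family bind AU-rich elements in the 3′ untranslated region (UTR) of short-lived mRNAs through a pair of CCCH zinc fingers. They recruit the CCR4-NOT deadenylase, which shortens the poly(A) tail and starts decay of the message. Zfp36 (tristetraprolin) is an immediate early gene best known for limiting cytokine mRNAs in immune cells. Zfp36l1 and Zfp36l2 (also called Brf1 and Brf2) act in development, in lymphocytes and in progenitor cells. The kinase MK2, downstream of p38, phosphorylates these proteins and dampens their activity.

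The core of the element is the heptamer TATTTAT in DNA letters, and a stronger form is the nonamer TTATTTATT. The family's own transcripts hold it. Each of the 3 members had 3 copies of the heptamer in its longest annotated 3′ UTR, and in each member 1 of these copies lay inside the nonamer. Only the copy inside the nonamer is printed below for each member, with its flanks. It is printed because it is the sequence that the family's proteins are known to recognise, here in the mRNAs that encode them. The printed copies are given 5′ to 3′ on the minus strand of mm9, with the heptamer in capitals.
Zfp36, chr7:29161971-29161997: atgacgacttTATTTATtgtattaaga
Zfp36l1, chr12:81209155-81209181: actgttggatTATTTATtttagaaatt
Zfp36l2, chr17:84584255-84584281: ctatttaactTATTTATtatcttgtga
The UTRs are 774 bases long in Zfp36, 1829 in Zfp36l1 and 1822 in Zfp36l2. Only the strand of the mRNA was searched, and the nonamer contains the heptamer. Of the 14026 genes tested at 15 weeks that have an annotated 3′ UTR, 3.64% hold 3 or more heptamers, which is a description and no test of these genes. A match is not evidence of binding.

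Zfp36 lies on chromosome 7 (29161803 to 29164274, ENSMUSG00000044786.5) with 1792 exon bases. Zfp36l1 lies on chromosome 12 (81208747 to 81214000, ENSMUSG00000021127.6) with 2984 exon bases. Zfp36l2 lies on chromosome 17 (84583271 to 84587287, ENSMUSG00000045817.7) with 3530 exon bases. All positions are in mm9, and all 3 genes are on the minus strand.

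Library totals ran from 13492007 to 24583430 reads assigned to genes. The Tsc1 count itself overlapped between genotypes at both ages, from 80.3 to 99.3 CPM (reads per 1000000 reads of the library, after TMM scaling) in Tsc1CKO and from 84.6 to 99.5 in controls at 4 weeks, and from 82.2 to 131.1 against 114.4 to 133.2 at 15 weeks. A count over the whole gene in mixed tissue does not check a deletion limited to some cells. All 15 neuron markers and all 17 astrocyte markers had reads in every library. The listed microglia, endothelial and oligodendrocyte markers did too, so detection alone does not check the tissue label. One library stood apart at 15 weeks. Tsc1CKO replicate 4 had 995.7 CPM of Gfap, an intermediate filament of reactive astrocytes, where the other 3 Tsc1CKO libraries had 2943 to 5054 and the controls 103.7 to 134.1. At 4 weeks, Tsc1CKO replicate 2 had the least Gfap of its group, 127.4 CPM against 216.5 to 249.5 in the others. The family's values and the counts of called genes are therefore also given without the library with the least Gfap of its group. Tsc1CKO replicate 2 at 15 weeks differed in other genes. There Rn45s, a ribosomal RNA gene, took 10.7% of reads, against 4.58% to 7.27% in the other 15-week libraries. Gh, a pituitary hormone gene, had 52.4 CPM there against 0 to 2.67. Without that library the 15-week log2 differences were 0.70 ± 0.25 (SE) for Zfp36, 0.12 ± 0.12 for Zfp36l1 and 0.50 ± 0.16 for Zfp36l2.

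Per base of exon, Zfp36l1 and Zfp36l2 were the abundant members in cortex and Zfp36 the scarce one. In RPKM, which divides CPM by exon length in kilobases, group means of Zfp36l1 ran from 8.25 ± 0.81 (SD, n = 5) in 4-week controls to 11.7 ± 0.80 (SD, n = 5) in 4-week Tsc1CKO. Group means of Zfp36l2 ran from 5.39 ± 0.34 (SD, n = 5) in 4-week controls to 10.6 ± 2.12 (SD, n = 4) in 15-week Tsc1CKO. Those of Zfp36 ran from 2.1 ± 0.81 (SD, n = 5) in 4-week controls to 3.5 ± 0.77 (SD, n = 4) in 15-week Tsc1CKO. When all 12 group means were put in order, neighbours overlapped library by library except around Zfp36l2 in 4-week controls. That group lay below Zfp36l2 in 15-week controls and above Zfp36 in 15-week Tsc1CKO with no overlap. Zfp36 had 37 to 161 reads in each library, against 340 to 660 for Zfp36l1 and 282 to 965 for Zfp36l2, so its counts are the least precise.

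**Figure D1:**
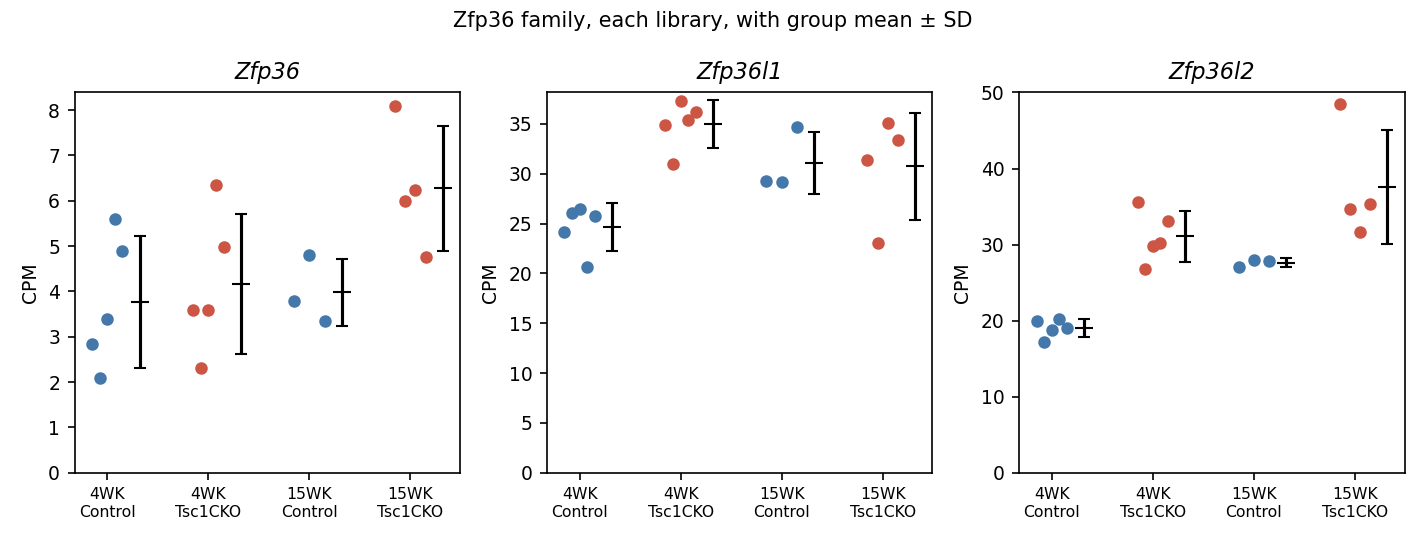
Each point is 1 library and gives the CPM (linear axis from 0) of the named gene in the 4 groups, with blue for control and red for Tsc1CKO; the bar beside each group is its mean ± SD. Zfp36l2 and Zfp36l1 separate the genotypes at 4 weeks, Zfp36l2 also at 15 weeks, and the Zfp36 points overlap at both ages.

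Zfp36l2 was higher in every Tsc1CKO library than in every control library at both ages. At 4 weeks the controls had 20.0, 17.2, 18.8, 20.2 and 19.1 CPM, and the Tsc1CKO libraries 35.6, 26.8, 29.8, 30.2 and 33.1. The fitted log2 difference was 0.71 ± 0.09 (SE), or 1.63-fold with a range of 1.45 to 1.84 at 2 SE on each side. The lowest of the 5 mutant values belonged to replicate 2, the library with little Gfap, and without it the log2 difference was 0.75 ± 0.08 (SE). At 15 weeks the controls lay close together at 27.0, 28.0 and 27.9 CPM, and the Tsc1CKO libraries had 48.5, 34.7, 31.6 and 35.4. The highest value belonged to replicate 1, and replicate 4 lay among the others. The log2 difference was 0.46 ± 0.15 (SE), 1.38-fold with a range of 1.12 to 1.71.

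The difference at 4 weeks chose this gene and carries no test. The difference at 15 weeks comes from other libraries, and there edgeR's quasi-likelihood test gave an adjusted p of 0.107 over 15015 genes, which missed the threshold of 0.05. The exact two-sided permutation test of log2 CPM gave p = 0.0571, which is the smallest that 4 against 3 libraries allow. Without Tsc1CKO replicate 4 the log2 difference was 0.48 ± 0.16 (SE), with an edgeR adjusted p of 0.0649. Leaving out 1 library at a time gave log2 differences of 0.34 to 0.54 and adjusted p-values of 0.0649 to 0.277 in edgeR. The call depended on the tool and on the libraries fitted. The adjusted p was 0.00629 with limma voom and quality weights and 0.0192 with all 17 libraries in one edgeR fit. That fit takes part of its spread from the 4-week libraries, which chose the gene, so its p is not independent of the choice. The other 13 of the 15 alternatives missed the threshold.

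Zfp36l1 was higher in every Tsc1CKO library at 4 weeks and did not separate the genotypes at 15 weeks. At 4 weeks the controls had 24.1, 26.1, 26.5, 20.6 and 25.8 CPM, and the Tsc1CKO libraries 34.9, 31.0, 37.3, 35.4 and 36.2. The log2 difference was 0.50 ± 0.08 (SE), 1.42-fold with a range of 1.26 to 1.59, and again this contrast chose the gene. Without Tsc1CKO replicate 2 it was 0.54 ± 0.09 (SE). The 15-week controls had 29.3, 29.2 and 34.7 CPM, and the Tsc1CKO libraries 31.4, 23.0, 35.1 and 33.4. All controls lay inside the range of the Tsc1CKO libraries, whose replicate 2 lay below every control. The log2 difference was 0.01 ± 0.16 (SE), with an interval of -0.32 to 0.34 at 2 SE on each side and an edgeR adjusted p of 0.974. Its sign changed with the scaling and with the library left out, from -0.06 to 0.12, and it was -0.04 without Tsc1CKO replicate 4. The value of 0.12 ± 0.12 (SE) came without Tsc1CKO replicate 2. The lowest library, Tsc1CKO replicate 2, was also the one in which the ribosomal RNA gene Rn45s took the largest share of reads, 10.7% against 4.58% to 7.27% in the other 15-week libraries. With Rn45s left out of the totals the fitted difference was 0.00. Whether the effect of genotype on Zfp36l1 differed between the ages was not tested, since such a test would contain the contrast that chose the gene.

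Zfp36 had 2.84, 2.09, 3.39, 5.59 and 4.90 CPM in the 4-week controls and 3.6, 2.31, 3.6, 6.34 and 4.99 in the 4-week Tsc1CKO libraries. The groups overlapped fully, and the spread within each was wide, with a coefficient of variation of 38.6% in controls and 36.9% in Tsc1CKO. The log2 difference at 4 weeks was 0.12 ± 0.29 (SE), with an interval of -0.45 to 0.70. It was 0.27 ± 0.27 (SE) without Tsc1CKO replicate 2, and it turned to -0.08 without Tsc1CKO replicate 4 and to -0.03 without control replicate 2. The 15-week controls had 3.80, 4.8 and 3.34 CPM and the Tsc1CKO libraries 8.10, 6.0, 6.24 and 4.76. Replicate 4, the library with less Gfap, fell just under the highest control, and the other 3 lay above all controls. The log2 difference was 0.68 ± 0.23 (SE), 1.60-fold with a range of 1.17 to 2.19. The edgeR test gave an adjusted p of 0.113, which missed the threshold, and the exact two-sided permutation test gave p = 0.114.

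Of the 15 alternatives at 15 weeks, 2 put Zfp36 past the threshold. The log2 difference was 0.78 with an adjusted p of 0.0332 in edgeR without Tsc1CKO replicate 4, and 0.85 with an adjusted p of 0.0089 in limma voom with quality weights. Over all 15 alternatives the difference stayed positive and the adjusted p ran from 0.0089 to 0.313. Fos, another immediate early gene, is given beside Zfp36. At 4 weeks replicates 4 and 5 held the highest Zfp36 values of both genotypes, and Fos was also highest there, at 122.2 and 71.9 CPM in controls and 97.0 and 64.3 in Tsc1CKO, against 7.48 to 51.3 in the other 6 libraries. At 15 weeks Fos was 303.1, 154.1, 10.7 and 77.5 CPM in Tsc1CKO replicates 1 to 4 and 114.0 to 139.2 in controls, so that replicate 3 had more Zfp36 than any control beside less Fos. The part of immediate early gene induction in the Zfp36 values was not tested.

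These values stand against the background of the whole transcriptome. At 15 weeks the edgeR test called 3.78% of the 15015 genes, 3.36% higher and 0.42% lower in Tsc1CKO, and none of the 3 members was among them. In the same comparison 11.2% of genes had every Tsc1CKO library above every control, as Zfp36l2 did. At 4 weeks the test called 0.0407% of 14754 genes in either direction, made up of 0.0407% higher and 0% lower, which is 6 genes and none. For the lower direction at 4 weeks edgeR had 1321 genes at an unadjusted p under 0.05, DESeq2 called 213 and limma voom 0. At 4 weeks 1.84% of genes had every Tsc1CKO library above every control, as Zfp36l1 and Zfp36l2 did, and because that contrast chose them nothing is read from it. Cmya5, the gene just ahead of Zfp36l1 in the 4-week order, had a log2 difference of 0.94 ± 0.15 (SE), and Lif, the gene just behind it, one of 1.71 ± 0.29 (SE).

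The authors' deposited table for 4 weeks lists Zfp36l2 first of 594 genes, with a log2 fold change of 0.70 ± 0.09 (SE) and an adjusted p of 1.93e-09. The authors' deposited table for 4 weeks has Zfp36l1 in place 10, at 0.50 ± 0.09 (SE) and 0.000107, and does not list Zfp36. None of the 3 is among the 1062 genes of the authors' deposited table for 15 weeks.

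**Figure D2:**
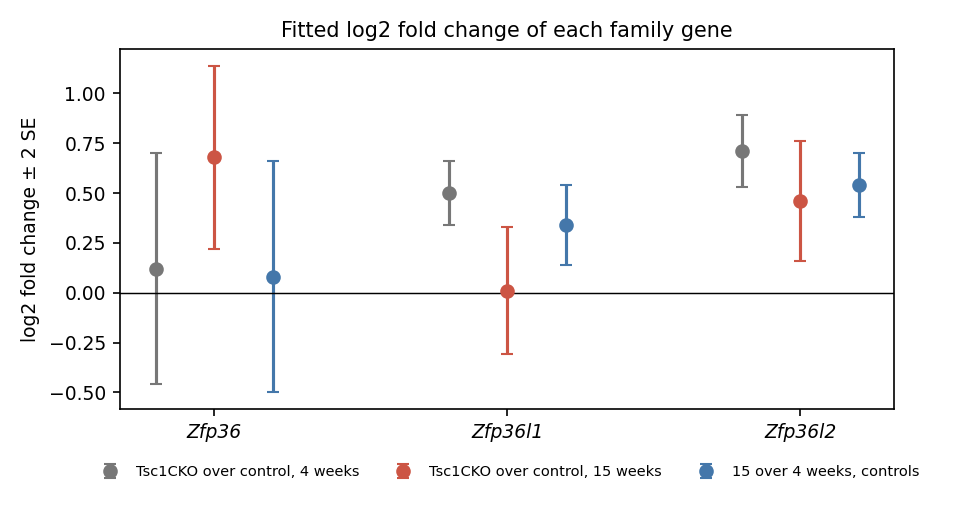
Points are fitted log2 fold changes from edgeR and bars span 2 SE on each side, for Tsc1CKO over control at 4 weeks (grey), the same at 15 weeks (red) and 15 over 4 weeks in controls (blue). The bars of Zfp36l2 stay above 0 in all 3 comparisons, those of Zfp36l1 reach 0 in the red one, and those of Zfp36 reach 0 in the grey and blue ones; its red bar stays above 0, with an adjusted p of 0.113 that missed the threshold.

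In control cortex, Zfp36l1 and Zfp36l2 were higher at 15 than at 4 weeks. Every 15-week control had more Zfp36l2 (27.0 to 28.0 CPM) than every 4-week control (17.2 to 20.2 CPM), a log2 difference of 0.54 ± 0.08 (SE). Zfp36l1 had 29.2 to 34.7 CPM against 20.6 to 26.5, a log2 difference of 0.34 ± 0.10 (SE), also with no overlap. Zfp36 overlapped between the ages, with 0.08 ± 0.29 (SE). This comparison shares the 4-week controls with the contrast that chose the genes, so it is given without a test. Among all 15007 genes compared, 21.9% had every 15-week control above every 4-week control. Age cannot be told apart from any difference in how the 2 sets of libraries were made. The 15-week controls lay close to the 4-week Tsc1CKO libraries, 27.6 ± 0.56 (SD, n = 3) against 31.1 ± 3.35 CPM (SD, n = 5) for Zfp36l2 and 31.0 ± 3.15 (SD, n = 3) against 35.0 ± 2.40 CPM (SD, n = 5) for Zfp36l1.

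The balance between the members, taken within each library, does not depend on library scaling. At 15 weeks the counts of Zfp36l2 divided by those of Zfp36l1 were 0.922, 0.959 and 0.804 in controls and 1.54, 1.51, 0.90 and 1.06 in Tsc1CKO. Tsc1CKO replicates 1, 2 and 4 stood above all controls and replicate 3 among them. For the log2 ratio of Zfp36l1 to Zfp36l2, the Tsc1CKO mean was -0.29 ± 0.38 (SD, n = 4) and the control mean 0.16 ± 0.13 (SD, n = 3), a difference of -0.45 with an exact permutation p of 0.171, two-sided, and 0.257 after adjustment over 3 pairs. The log2 ratio of Zfp36 to Zfp36l1 differed by 0.67 (exact permutation p = 0.114, adjusted 0.257) and that of Zfp36 to Zfp36l2 by 0.22 (exact permutation p = 0.343, adjusted 0.343). With 4 against 3 libraries the smallest exact p is 0.0571, so no ratio could reach 0.05 whatever its values. At 4 weeks the Zfp36l2 to Zfp36l1 ratio was 0.657 to 0.978 in controls and 0.801 to 1.02 in Tsc1CKO, overlapping.

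**Figure D3:**
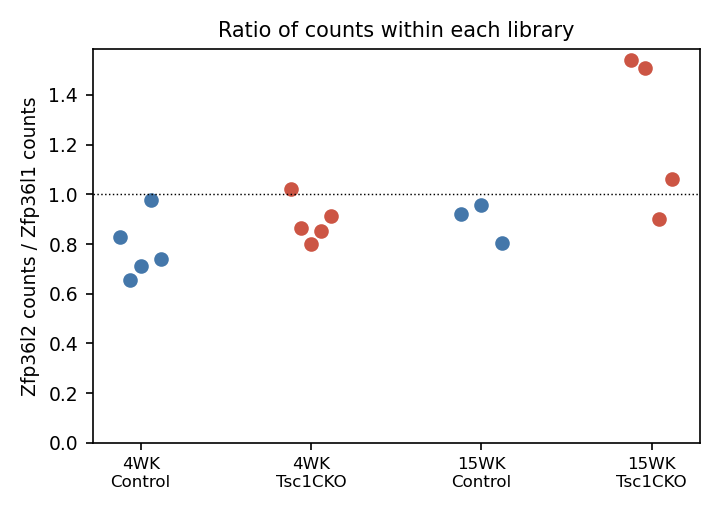
Each point is 1 library and gives the Zfp36l2 count divided by the Zfp36l1 count (linear axis from 0), in the 4 groups, with a dotted line at equal counts. Of the 4 Tsc1CKO libraries at 15 weeks, replicates 1 and 2 reach 1.54 and 1.51, and the 3 controls of that age lie between 0.804 and 0.959.

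Cell type markers were compared between the genotypes too. At 4 weeks, where Zfp36l1 and Zfp36l2 were higher in Tsc1CKO, all 17 astrocyte markers had a positive log2 difference with a median of 0.37, and their summed level was 7721 to 12617 CPM in controls and 11824 to 16789 in Tsc1CKO. All 14 endothelial markers were positive with a median of 0.42, and their sum was 364.4 to 582.2 against 582.0 to 708.9 CPM. Of 16 microglia and macrophage markers, 15 were positive with a median of 0.25, and their sum was 441.0 to 676.8 against 620.4 to 835.8 CPM. Oligodendrocyte precursor markers were positive in 8 of 8 with a median of 0.29, meningeal fibroblast markers in 9 of 10 (0.29), pericyte and smooth muscle markers in 9 of 10 (0.24), oligodendrocyte markers in 8 of 10 (0.08) and neuron markers in 2 of 15 (-0.12). The median over all genes at 4 weeks was 0.00. The astrocyte, endothelial and microglia sums overlapped between the genotypes at that age. Neither edgeR nor limma voom called any marker of these lists at 4 weeks. DESeq2 called higher 4 astrocyte, 5 endothelial, 2 microglia, 2 pericyte and smooth muscle and 2 oligodendrocyte precursor markers. Over all genes it called 4.01% in either direction. At 15 weeks the astrocyte sum was 8349 to 9271 CPM in controls and 13862 to 16350 in Tsc1CKO, with no overlap, and 11 of 17 markers passed the test as higher. Zfp36l1 overlapped between the same libraries. Without Tsc1CKO replicate 4 that count of astrocyte markers was 12, and without control replicate 1, 2 or 3 it was 2 each time. The microglia sum was 524.5 to 578.2 against 788.1 to 1391 CPM at 15 weeks, with 4 of 16 markers called higher beside 3.36% of all genes. That count was 0 without Tsc1CKO replicate 1 or any 1 control, 10 without Tsc1CKO replicate 4, 12 with DESeq2 and 13 with limma voom. The astrocyte and microglia counts stand beside all genes in the same fits. Called higher were 42 of 15282, 39 of 15208 and 47 of 15242 genes without control replicate 1, 2 or 3. Without Tsc1CKO replicate 1 it was 115 of 14755. The share higher was 13.4% without Tsc1CKO replicate 4, 9.26% with DESeq2 and 18.5% with limma voom. The endothelial sum was 456.7 to 553.2 against 554.9 to 649.5 CPM at 15 weeks, with no overlap. Of its 14 markers 9 were positive, with a median of 0.07, and edgeR called none. In controls the astrocyte and endothelial sums at 15 weeks (8349 to 9271 and 456.7 to 553.2 CPM) lay inside the range at 4 weeks, while Zfp36l1 and Zfp36l2 lay above theirs. The part of cell type make-up in the family's values was not tested. Transcripts of pituitary hormone genes summed to 1.94 to 120.1 CPM in controls and 3.89 to 494.5 in Tsc1CKO at 4 weeks, and their part was not tested.

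The proteins that work with or against the family are given next, with counts by several tools because the number of calls at 15 weeks depends on the tool. Over all genes, 15.7% were higher and 9.59% lower at an unadjusted p under 0.05 in edgeR. The shares called by DESeq2 were 9.26% (higher) and 4.92% (lower). With limma voom they were 18.5% and 16%. The edgeR test without Tsc1CKO replicate 4 called 13.4% higher and 9.8% lower. The counts of each list stand against these shares.

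Of 15 other proteins that bind AU-rich elements, none passed the edgeR test at 15 weeks, with a median log2 difference of -0.17 beside 0.02 over all genes. In edgeR 1 was higher and 2 were lower at an unadjusted p under 0.05. DESeq2 called 2 lower, limma voom 2 higher and 5 lower, and edgeR without Tsc1CKO replicate 4 called 1 higher and 4 lower. The 4 with the smallest p were Elavl4 at -0.54 ± 0.13 (adjusted p = 0.054), Zc3h12a at 1.11 ± 0.28 (0.0612), Elavl2 at -0.51 ± 0.14 (0.0759) and Elavl1 at -0.31 ± 0.14 (0.203), as log2 difference ± SE with the edgeR adjusted p. Elavl4 passed under 7 of 15 alternatives, Elavl2 under 5, Zc3h12a under 4 and Elavl1 under 3. The Elavl proteins stabilise AU-rich mRNAs, and Elavl2 and Elavl4 are neuronal. Zc3h12a (Regnase-1) is an endonuclease that cuts cytokine mRNAs.

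No gene of the decay machinery that the family recruits passed the edgeR test at 15 weeks, and other fits called some. Among 20 genes of the CCR4-NOT and PAN2-PAN3 deadenylases and their poly(A)-binding partners, the median was -0.26 at 15 weeks, and edgeR had 2 higher and 4 lower at an unadjusted p under 0.05. DESeq2 called 1 higher, limma voom 2 higher and 9 lower, and edgeR without Tsc1CKO replicate 4 called 2 higher and 5 lower. The median was -0.17 without control replicate 2. Pabpc4, a poly(A)-binding protein, had 0.73 ± 0.22 (edgeR adjusted p = 0.0934) and Cnot1, the scaffold that the family binds, had -0.41 ± 0.15 (0.134). Among 18 genes of decapping and 5′ decay the median was -0.12, with 4 lower at an unadjusted p under 0.05. DESeq2 called 2 lower, limma voom 5 lower and edgeR without Tsc1CKO replicate 4 called 4 lower, and the median was -0.08 without control replicate 2. The 15 exosome genes had a median of 0.02, with 1 higher at an unadjusted p under 0.05 and 1 called higher by DESeq2, by limma voom and without Tsc1CKO replicate 4. Neuron markers had a median of -0.31 at the same age, and their summed level was 13967 to 16319 CPM in controls and 10735 to 12648 in Tsc1CKO. The part of neuronal RNA in the medians of the decay genes was not tested.

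A list of 18 genes held kinases and phosphatases that act on the family or upstream of it. It also held Ywhab, Ywhag and Ywhaz, which encode adaptor proteins that bind phosphorylated partners. None passed the edgeR test at 15 weeks and the median was -0.09, or -0.05 without Tsc1CKO replicate 2. In edgeR 2 were higher and 3 lower at an unadjusted p under 0.05. DESeq2 called 2 lower, limma voom 3 higher and 4 lower, and edgeR without Tsc1CKO replicate 4 called 1 higher and 4 lower. Mapkapk2, which encodes MK2, had a log2 difference of 0.52 ± 0.18 (edgeR adjusted p = 0.118), and Mapk14, which encodes its activator p38α, had -0.46 ± 0.16 (0.117). Mapk8, the kinase JNK1, had -0.40 ± 0.11 (0.0696).

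Of 31 mRNAs reported elsewhere as targets of the family, 22 passed the filter at 15 weeks, and 2 rose in Tsc1CKO by edgeR, where 3.36% of all genes did. At an unadjusted p under 0.05 there were 8, all higher, while DESeq2 called 5 higher and limma voom 9 higher and 1 lower. The median log2 difference of the 22 was 0.43 beside 0.02 over all genes, with 16 of 22 positive. Without Tsc1CKO replicate 2 that median was 0.17. Ccl2 is among the 22, with 0, 2 and 0 reads in controls and 19, 41, 118 and 0 in Tsc1CKO. It passed the filter only through the Tsc1CKO libraries, so its direction, at 5.83 ± 1.70 (SE), was set by the filter. It enters the median, the 16 positive and the 8 at an unadjusted p. Lif had only 9 to 11 reads in each control. Lif, a cytokine of the interleukin-6 family, had 0.585, 0.485 and 0.634 CPM in controls and 4.12, 10.3, 2.06 and 2.47 in Tsc1CKO, a log2 difference of 3.06 ± 0.62 (SE) with an edgeR adjusted p of 0.0379. Ccnd1, the cell cycle regulator cyclin D1, had 27.8, 28.0 and 28.7 CPM in controls and 59.2, 62.0, 39.0 and 77.0 in Tsc1CKO, a log2 difference of 1.10 ± 0.21 (SE) with an edgeR adjusted p of 0.0338. All Tsc1CKO libraries lay above all controls for both.

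The count of called targets depended on single libraries. It was 0 without Tsc1CKO replicate 1 and without control replicate 1, 2 or 3, where 39 to 115 of all genes were called higher. It was 9, 8 higher and 1 lower, without Tsc1CKO replicate 4, where 13.4% of all genes were called higher and 9.8% lower. Plau, which encodes the protease urokinase, had 46.1, 49.1, 32 and 3.59 CPM in Tsc1CKO replicates 1 to 4 and 5.38, 4.10 and 3.0 in controls, so that replicate 4 lay at the control level. Its log2 difference was 2.99 ± 0.73 (SE) with an edgeR adjusted p of 0.0575. Icam1, an adhesion molecule of endothelium and glia, had 1.98 ± 0.47 (0.0529). Several of these mRNAs are made by microglia or reactive astrocytes, whose markers were higher in the same libraries as given above, and the part of those cells was not tested. At 4 weeks 21 targets passed the filter, with a median of 0.07 beside 0.00 over all genes. Lif ranked just behind Zfp36l1 there and so belongs to the contrast that chose the family.

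The 24 immediate early genes, the class to which Zfp36 belongs, had a median of -0.21 at 15 weeks and none passed in edgeR, with 3 higher at an unadjusted p under 0.05 and 1 called higher by DESeq2. Limma voom called 3 higher and 1 lower, and edgeR without Tsc1CKO replicate 4 called 2 higher and 1 lower. The median was -0.54 without Tsc1CKO replicate 1, -0.08 without Tsc1CKO replicate 3 and -0.10 without control replicate 3. Their summed level was 3003 to 4082 CPM in 15-week controls and 771.5 to 3476 in Tsc1CKO. Atf3, a stress-induced transcription factor, had 4.23 ± 0.98 (edgeR adjusted p = 0.0514), and Egr1, an activity-induced factor of neurons, had -1.21 ± 0.54 (0.2). At 4 weeks, over these 7 groups together, edgeR called 0 of 131 genes, with 18 at an unadjusted p under 0.05, of which 10 were higher and 8 lower, beside 18.8% of all genes. DESeq2 called 3 higher and 2 lower there, beside 4.01% of all genes, and limma voom 0, beside 0.0407%.

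**Figure D4:**
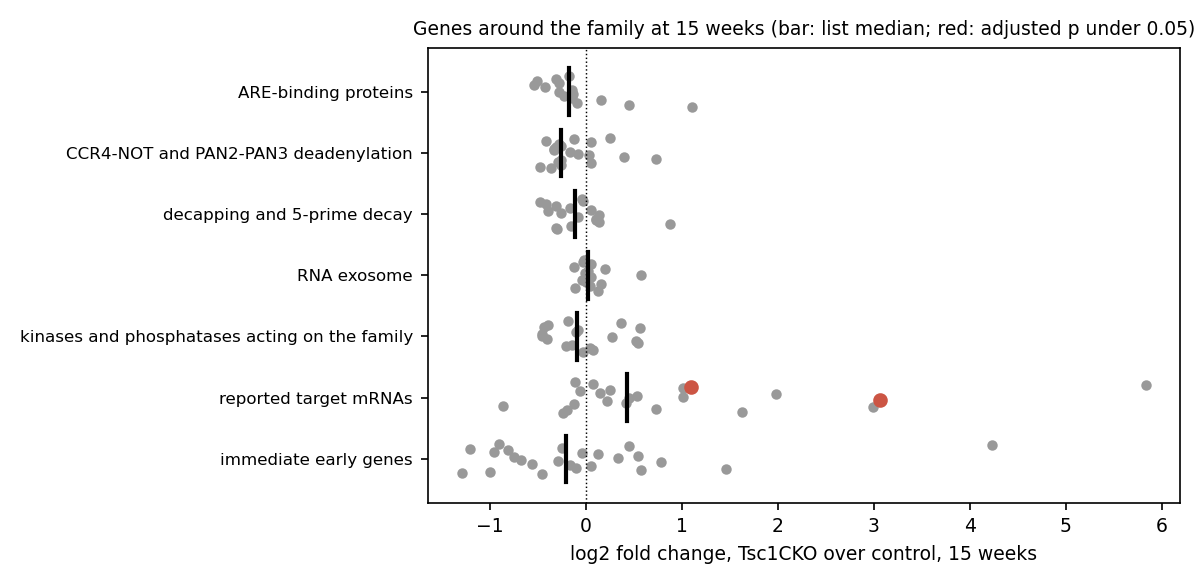
Each point is 1 tested gene, placed by its log2 fold change of Tsc1CKO over control at 15 weeks, with 1 row for each group of genes; the black bar is the group's median and red points passed an adjusted p of 0.05 in edgeR. The 2 red points are Ccnd1 at 1.10 and Lif at 3.06, and the medians run from -0.26 for the deadenylases to 0.43 for the reported targets.

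The heptamer that marks the family's binding sites was then followed over all tested genes. At 15 weeks the median log2 difference was 0.06 for the 10044 genes with no heptamer in the longest annotated 3′ UTR, -0.04 for the 2617 genes with 1 copy and -0.10 for the 1365 genes with 2 or more. The share called higher was 3.79%, 2.60% and 2.86%, and the share called lower 0.358%, 0.497% and 0.586%. The UTRs themselves were longer in genes with more copies, with medians of 902, 1825 and 2641 bases, and the part of UTR length was not tested. At 4 weeks the medians were 0.01, 0.00 and -0.02. All 3 members belong to the 9.73% of genes with 2 or more copies.

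Across the 17 libraries the members did not follow one pattern. As a description, with libraries and scaling shared between all genes, Pearson's r of log2 CPM was 0.59 between Zfp36l1 and Zfp36l2, 0.58 between Zfp36 and Zfp36l2 and 0.08 between Zfp36 and Zfp36l1. After each group's mean was subtracted these were 0.00, 0.47 and -0.11. Zfp36l1 and Zfp36l2 were both chosen on their difference between the 4-week groups, which is part of the first value for that pair, so it is no evidence of a link between them. Among 13147 genes, those most like Zfp36l2 were Pcsk6, a proprotein convertase, with an r of 0.93, then Gm5424 (0.92), Scamp2 (0.91), Ass1, an enzyme of arginine synthesis (0.90), and Lrp10 (0.89). Gm5424 and Ass1 are near-identical copies, and how reads were split between them is uncertain. Those most like Zfp36l1 were Ncan, a proteoglycan of the brain matrix, with an r of 0.90, then Frem2 (0.86), Gpr124, Fbxw8 and Itpr2 (0.85 each). Those most like Zfp36 were Gadd45g, a stress-response gene, with an r of 0.86, then Spsb1, Rhou and Cyr61 (0.80 each) and Hes6 (0.78).

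Once group means were subtracted, the 3 genes nearest to Zfp36 were Pcolce2 (0.83), Cyr61 (0.82) and Gadd45g (0.81), of which Cyr61 and Gadd45g were also among the 5 nearest before. The nearest to Zfp36l1 were Tnpo2 (0.92), Rnf157 (0.91) and Vsig2 (0.90), and to Zfp36l2 Gm10516 (0.85), Oaz3 (0.85) and Nrm (0.74), none of which was among the 5 nearest before. Pcsk6, the gene most like Zfp36l2, had log2 differences of 1.46 ± 0.26 (SE) at 4 weeks and 1.38 ± 0.20 (SE) at 15 weeks. Ncan, the gene most like Zfp36l1, had 0.41 ± 0.08 (SE) at 4 weeks and 0.14 ± 0.16 (SE) at 15 weeks.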

How the data were processed

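The authors deposited raw read counts for 23284 genes in 17 libraries and, for each age, a table of genes with size-factor normalized counts (a signal), log2 fold changes, a test score and p-values, made with DESeq2. Per the series' design text, RNA was poly(A)-selected, and reads of 100 bases were processed with bcl2fastq 1.8.4 and Tophat 2.0.4 on mm9. The sources used here name no counting tool, strand setting or annotation.

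The deposited counts were tested with edgeR 4.0.16 (R 4.3.3) by the quasi-likelihood test with robust dispersion, TMM scaling, filterByExpr and Benjamini-Hochberg adjustment over all tested genes, separately for each age. Alternatives used limma 3.58.1 (voom with quality weights), DESeq2 1.42.0, other scalings, filters and fits, and each library left out. CPM values are scaled by TMM over the 17 libraries. RPKM values divide these by union exon lengths of GENCODE vM1, which may not be the annotation counted. Ratios within a library add 0.5 to each count. Permutation tests were exact (scipy 1.17.1). Fits were tested on simulated data. Replicates differed beyond sampling noise in all 29 pairs, with a chi-square per degree of freedom of 6.81 to 91.3. The members and gene lists were chosen with earlier results of these data known. Named genes are the members, up to 4 genes of each list with the smallest 15-week p, of which some are left out, and the nearest 5 genes by r and 3 after subtraction of group means, among genes with a mean log2 CPM of at least 1. Lif, Ccnd1 and Plau are given by library, and Fos, Gfap and Tsc1 as values, chosen after their values were seen. The remaining marker lists gave no call at 15 weeks except 1 of 8 oligodendrocyte precursor markers, higher, and 1 of 15 neuron markers, lower; medians were 0.07 for 14 endothelial, 0.12 for 10 pericyte and smooth muscle, 0.33 for 10 meningeal, -0.27 for 10 oligodendrocyte and 0.12 for 8 precursor genes. Of 5 blood markers 1 passed the filter, at -0.19, and of 7 pituitary hormone genes 2 did, at a median of 2.91.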

Additional observations from a re-analysis of the deposited data

How the results depend on the processing

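For Zfp36l2 and Zfp36l1 at 4 weeks and for age in controls, the direction held under every alternative run; leaving out 1 library gave 0.65 to 0.75 and 0.44 to 0.54 at 4 weeks, and 0.50 to 0.56 and 0.25 to 0.38 for age. Zfp36 at 4 weeks ran from -0.08 to 0.29 with 1 library left out, and for age from -0.09 to 0.25; limma voom gave 0.36 and 0.33, and the replicate block 0.15 and 0.53. At 15 weeks Zfp36 ran from 0.55 to 0.85 and Zfp36l2 from 0.34 to 0.54 in the same way. Limma voom gave 0.85 for Zfp36 and 0.65 for Zfp36l2, and the fit of all 17 libraries 0.44 for Zfp36l2, all past the threshold. The fit of all 17 libraries takes part of its spread from the 4-week libraries that chose the gene. Zfp36l1 at 15 weeks changed sign, to -0.01 with RLE size factors, DESeq2, no filter on low counts or all 17 libraries, to -0.06 with the replicate block, and between -0.06 and 0.12 with 1 library left out. The cause was not tested.

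The number of genes called at 15 weeks, 567, became 2130 with DESeq2, 5173 with limma voom, 3501 with all 17 libraries and 2842 with the replicate block, and 39 to 3460 with 1 library left out. At 4 weeks the 6 called genes became 592 with DESeq2, 38 without a filter, 76 with all 17 libraries and 12 with the block, and 0 to 594 with 1 library left out. Among the fits with 1 library left out, the largest counts came without Tsc1CKO replicate 4 at 15 weeks (3460) and without Tsc1CKO replicate 2 at 4 weeks (594). The labels do not say what libraries of the same replicate number share. Over all genes, same-numbered libraries correlated at -0.103 to 0.199 at 15 weeks and -0.111 to 0.073 at 4 weeks. Of the Tsc1CKO libraries that have a same-numbered control, only 15-week replicate 1 correlated best with its own number. For Zfp36 at 4 weeks, however, the SE was 0.15 with the replicate block and 0.29 without it. Whether the numbers mark a shared batch was not tested. Ratios within a library differed by 0.47 to 0.86 (Zfp36 to Zfp36l1), 0.10 to 0.35 (Zfp36 to Zfp36l2) and -0.60 to -0.34 (Zfp36l1 to Zfp36l2) with 1 library left out. The exosome gene Wdr61 ran from -0.00 to 0.21 in the same way. With the nonamer the medians of genes with 2 or more copies were -0.11 at 15 weeks and -0.01 at 4 weeks. On the size-factor scale 5, 4 and 5 of the 5 genes nearest to Zfp36, Zfp36l1 and Zfp36l2 were shared. With the block the count of called targets was 6, 5 higher and 1 lower. List counts and listed genes were recomputed under alternatives chosen after seeing the data. The depth limits Zfp36 most, with as few as 37 reads in a library.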
